A study of Sus scrofa with 14 samples.

Results

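RNA-seq values of wild boar fat were compared with those of Bama pig fat in both depots at once, with the depot as a covariate. Of the 14 samples of the series, 7 were RNA-seq libraries and all 7 entered the comparison. Wild boar gave 2 libraries of the greater omentum (GOM) and 2 of the upper layer of backfat (ULB), and Bama pig gave 2 libraries of the GOM and 1 of the ULB, which is replicate 2. A further library, replicate 1 of the Bama pig ULB, was not analysed here, so the Bama pig ULB values have no replicate. All animals were females of 2 years, kept on 1 farm and fasted before sampling. The wild boars had been caught young and raised in captivity, and each breed is represented by 2 animals. Both depots were taken from these animals, so GOM and ULB libraries of a breed share animals, and the labels do not say which. Genes entered when their TPM (a level corrected for transcript length) was above 0.1 in all libraries of at least 1 breed, which 15993 of 21280 listed genes did.

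The Bama pig is a small indigenous breed of southern China that lays down much fat, and the wild boar is lean. Omental fat lies on the gut and is covered by a mesothelium, whereas backfat lies under the skin and rests on connective tissue. Besides adipocytes, both depots hold progenitors and fibroblasts that make the extracellular matrix, blood vessels, nerves and immune cells. In bulk tissue, fewer cells of a type cannot be told apart from less RNA per cell.

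Library totals lay between 10833207 and 18627105 estimated counts, and intervals and floors given below cover counting error only. The depot labels were borne out by their markers. Summed TPM of the mesothelium list was 269 to 749 in the 4 GOM libraries and 9.98 to 36.4 in the 3 ULB libraries, and that of the subcutaneous patterning list was 12.2 to 17.7 in the GOM and 107 to 141 in the ULB. The adipocyte markers FABP4, ADIPOQ and PLIN1 were abundant in every library, with FABP4 between 4997 and 9823 TPM. Libraries stood apart in another way. The 13 mitochondrially encoded genes summed to 206300 TPM in Bama pig GOM 1 and to 171440 TPM in Bama pig ULB 2, and to between 26059 and 49041 TPM in the other 5. Across genes whose TPM passed 0.1 in all 7 libraries, Spearman's rho of Bama pig GOM 1 was 0.931 with Bama pig ULB 2 and 0.92 with Bama pig GOM 2, whereas that of Bama pig GOM 2 was 0.957 with each wild boar GOM library. These coefficients are across genes, which are not independent replicates. What sets both libraries apart was not tested.

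**Figure D1:**
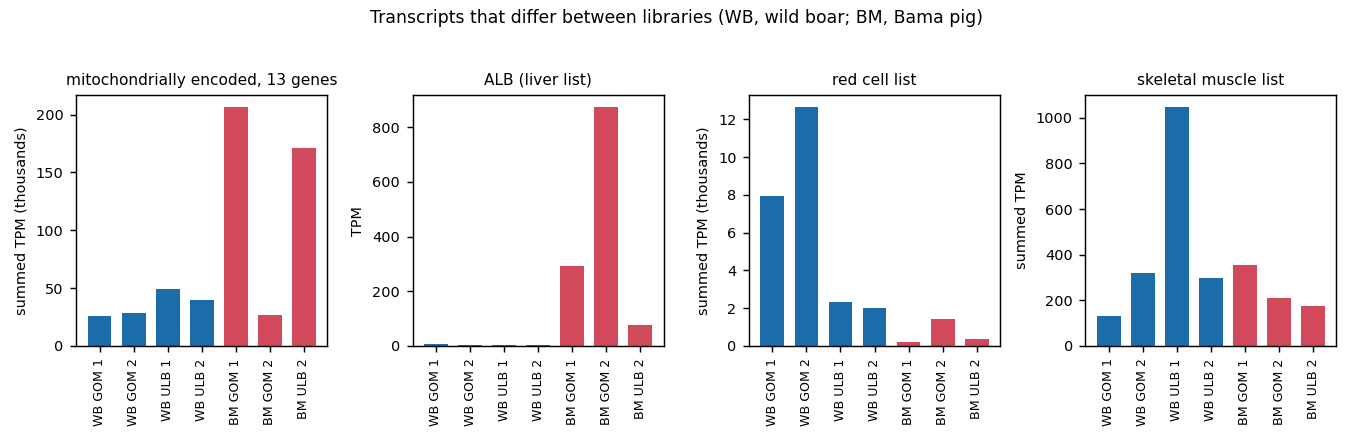
Levels of 4 sets of transcripts in the 7 RNA-seq libraries, as bars from 0 on a linear axis, with wild boar (WB) in blue and Bama pig (BM) in red; the panels give the summed TPM of 13 mitochondrially encoded genes, the TPM of ALB, and the summed TPM of the red cell and skeletal muscle lists. Mitochondrial RNA was high in Bama pig GOM 1 and ULB 2, ALB was high in the 3 Bama pig libraries, and red cell transcripts were highest in both wild boar GOM libraries.

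Rounded estimated counts were tested with edgeR's quasi-likelihood F test (TMM normalization, depot as covariate, two-sided, Benjamini-Hochberg adjusted p below 0.05, log2 fold change above 1 in absolute size), and 84 of 15993 genes (0.525%) were called between the breeds. Of these, 21 (0.131%) were higher and 63 (0.394%) were lower in wild boar, while the unadjusted p was below 0.05 for 3576 genes (22.4%). The excess of lower calls did not hold in every alternative. Without both wild boar libraries numbered 1, 20 were higher and 12 lower, and without both numbered 2, 7 were higher and 12 lower. In all 84, every wild boar library of a depot lay on one side of every Bama pig library of that depot in TMM-normalized counts (CPM), the same way in the GOM and in the ULB. Such parting was common among all genes tested, at 4262 genes (26.6%), 13.3% in each direction, so it adds little to a call. In TPM, 75 of the 84 genes also parted all 4 wild boar from all 3 Bama pig libraries with the depots pooled. The call itself favours this parting, and its share among all genes was not counted. The count depended on single libraries. It was 4 without Bama pig ULB 2, 14 without wild boar ULB 1, 25 without wild boar GOM 2, 27 without wild boar ULB 2 and 2085 without Bama pig GOM 2. With both Bama pig libraries rich in mitochondrial RNA left out, 10 genes were called, 8 of them among the 84, and with the mitochondrially encoded genes removed it was 82. DESeq2 called 1175 genes, among them all 84.

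Transcripts that belong to liver, red cells and skeletal muscle were set aside by fixed lists. They made up 23 of the 84 genes. The liver list held 128 tested members, of which 20 were called lower and 1, GNMT, higher in wild boar, with a median log2 fold change of -1.65 against -0.01 over all genes tested. ALB, which encodes serum albumin, had 6.6 and 4.19 TPM in wild boar GOM, 1.95 and 4.42 in its ULB, 293 and 873 in Bama pig GOM and 77.7 in Bama pig ULB. The groups did not overlap in either depot (log2 fold change -5.67, SE 0.53, adjusted p = 0.00321 from edgeR's test). GC, the vitamin D binding protein of plasma, FGB, a chain of fibrinogen, and APOB, the protein of low density lipoproteins, fell likewise, with log2 fold changes of -4.45, -4.15 and -4.76. Over the whole list, the summed TPM did not follow the breed, at 1647 to 2143 in wild boar and 1461 to 3716 in Bama pig, and the abundant members C4BPA and PON3 were not called. On the red cell list, with 18 members tested, AHSP, which stabilizes free alpha globin, and ALAS2, the first enzyme of heme synthesis in red cells, were higher in wild boar. Summed TPM of this list was 1984 to 12646 in wild boar and 187 to 1447 in Bama pig, mostly HBB. No member of the skeletal muscle list was called among 41 tested (8 higher and 2 lower at an unadjusted p below 0.05, and between 0 and 2 called under the alternatives). How far such transcripts take part in the differences of other genes was not tested. With the 3 lists removed before normalization, 38 genes were called, all of them among the 84. The calls of C1RL, LGALS13, SEMA3B, PHGDH and SPP1, described below, were lost there.

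The other 61 genes are described from here on. They comprised 18 genes higher in wild boar, 14 with a symbol, and 43 lower, 21 with a symbol. The set-aside lists match by symbol, so genes without a symbol could not be set aside. Among the latter, ENSSSCG00000008998 had 19.5, 82.1 and 6.28 TPM in Bama pig GOM 1, GOM 2 and ULB 2. FGB, of the liver list, had 40.8, 128 and 14.7 TPM there. Whether genes without a symbol include further liver transcripts was not tested. Each of the 61 kept its direction under every alternative, up to 22 of them. All 61 part the breeds in both depots, which largely fixes this outcome beforehand. The call itself held in every alternative for 1 gene. A set of 24 genes was taken, the 12 higher and the 12 lower genes with the smallest p that have a symbol and a mean TPM of at least 1 in either breed, and 23 of them are plotted by library. Without Bama pig ULB 2, or without both Bama pig libraries rich in mitochondrial RNA, none of these 24 passed edgeR's test, while all kept their direction. The latter fit has a single Bama pig library, GOM 2, whose spread was assumed to be that of the wild boar libraries. Log2 fold changes of several genes moved little there, from 2.64 to 2.66 for MFAP5, from -3.93 to -4.08 for GDAP1L1 and from -5.02 to -4.66 for NPSR1. Those of other genes shrank, from -2.12 to -1.38 for SPP1, from 1.87 to 1.26 for PHGDH and from 1.83 to 1.29 for TOMM7. That of SAL1 moved from 4.36 to 3.04, and that of CAPN12 from -9.11 to -3.57. Those of ATP6V0A4, BTC, DUSP1 and RDH5 grew instead. Of the 24, 6 were called without wild boar ULB 1, 7 without wild boar GOM 2, 10 without wild boar ULB 2, 14 without Bama pig GOM 1 and 20 without wild boar GOM 1.

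**Figure D2:**
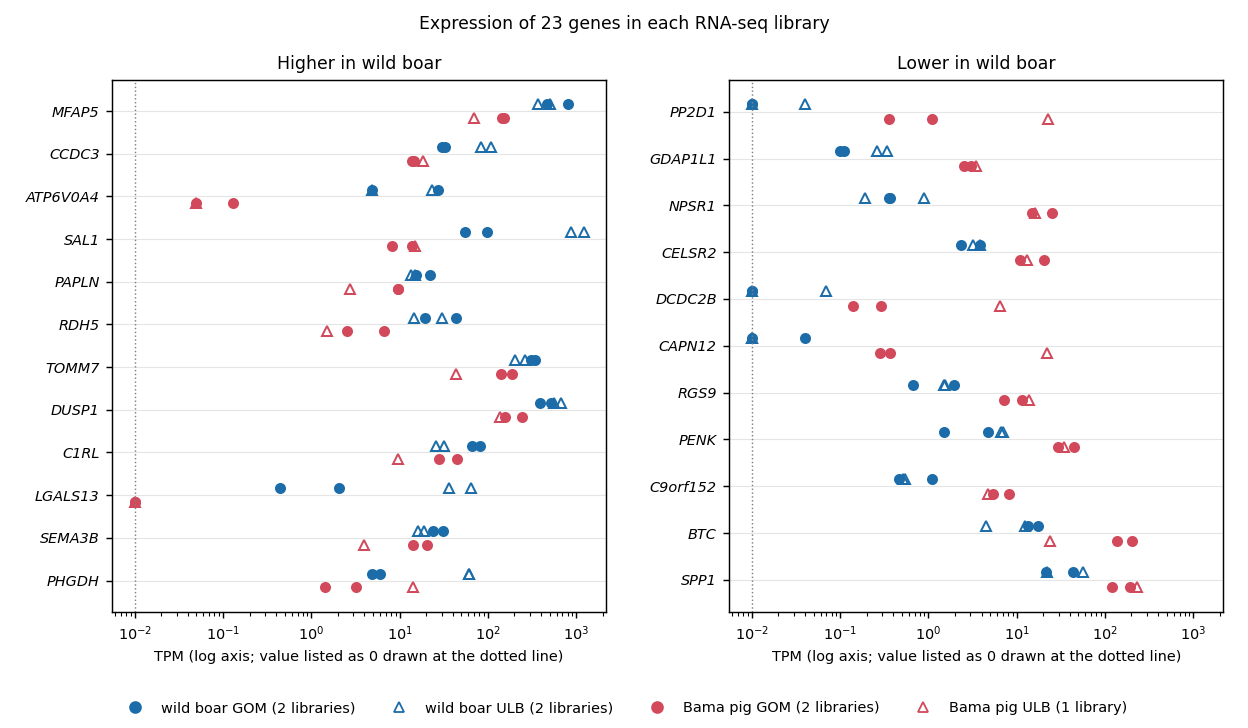
TPM (log axis) of 23 genes in each RNA-seq library, 12 higher in wild boar (left) and 11 lower (right), ordered by p from the top; filled circles are GOM and open triangles ULB libraries, wild boar in blue and Bama pig in red, and values listed as 0 are drawn at the dotted line. Breeds part in both depots for every gene shown, whereas the distance differs, from 1.54 and 1.55 log2 units for C1RL and SEMA3B to levels near 0 in 1 breed for LGALS13, PP2D1, DCDC2B and CAPN12, the last 3 with a single high library, Bama pig ULB.

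Several of the genes higher in wild boar encode secreted proteins of the extracellular matrix. MFAP5 (ENSSSCG00000031712, chromosome 5 from 62742520 to 62757522 of Sscrofa11.1) encodes a glycoprotein of elastic microfibrils and marks fibroblast-like progenitors of fat. It had 463 and 799 TPM in wild boar GOM and 510 and 371 in its ULB, against 153 and 146 in Bama pig GOM and 70.2 in Bama pig ULB. All 4 wild boar libraries lay above all 3 Bama pig libraries (log2 fold change 2.64, SE 0.33, adjusted p = 0.0152 from edgeR's test), and it was called in 17 of 22 alternatives. PAPLN, a matrix protein related to the ADAMTS proteases, had 21.9 and 15.5 TPM in wild boar GOM, 15.1 and 13.4 in its ULB, 9.67 and 9.66 in Bama pig GOM and 2.73 in Bama pig ULB (log2 fold change 1.81, SE 0.26, adjusted p = 0.0222 from edgeR's test). THBS3, a thrombospondin, had 22.5 and 16.5 TPM in wild boar GOM against 11.8 and 8.92 in Bama pig GOM, and its lowest wild boar ULB library was above the 5.36 TPM of Bama pig ULB (log2 fold change 1.38, SE 0.24, adjusted p = 0.047 from edgeR's test). It was called in 6 of 22 alternatives. CCDC3, a protein that adipocytes and vessel walls secrete, had 30.3 and 32.6 TPM in wild boar GOM, 83.6 and 107 in its ULB, 13.9 and 14.7 in Bama pig GOM and 18.3 in Bama pig ULB, without overlap in either depot (log2 fold change 1.94, SE 0.25, adjusted p = 0.0152 from edgeR's test).

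On the whole list of proteoglycans and matrix glycoproteins, 3 of 60 members were called (MFAP5, PAPLN and THBS3), all higher in wild boar, against 0.525% of all genes. The median log2 fold change was 0.53, and 23 members were higher and 1 lower at an unadjusted p below 0.05, which 22.4% of all genes passed. DCN, the most abundant of them, had 2026 to 3750 TPM in wild boar and 1320 to 2340 in Bama pig and was not called. Of the collagens, 0 of 29 were called by edgeR (7 higher and 1 lower at an unadjusted p below 0.05, 0 to 4 called under the alternatives), with a median of 0.37. COL1A2, a chain of type I collagen, had 718 and 382 TPM in wild boar GOM, 1347 and 1285 in its ULB, 156 and 300.3 in Bama pig GOM and 618 in Bama pig ULB. Among fibroblast and progenitor markers, MFAP5 was the 1 member called of 23, 19 members had a log2 fold change above 0, and the median was 0.61, with a summed TPM of 5330 to 7901 in wild boar and 3730 to 6029 in Bama pig. Tendon and cartilage genes had the highest median of all lists, 1.1, from 0.39 in the GOM and 2.16 in the ULB, with 0 of 9 members called by edgeR and 4 at an unadjusted p below 0.05. FMOD and KERA, small proteoglycans of tendon and cornea, reached 90.3 and 164 TPM and 89.3 and 68.7 TPM in wild boar ULB, against 25.5 and 13 TPM in Bama pig ULB, and neither was called. The part of fibroblast or tendon tissue in the values of the called matrix genes was not tested.

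Other genes higher in wild boar encode pumps, carriers and enzymes. ATP6V0A4, a subunit of the proton pump of acid-secreting kidney cells, had 4.86 and 27.6 TPM in wild boar GOM and 4.85 and 23.2 in its ULB. In Bama pig it had 0.13, 0.05 and 0.05 TPM, from 1 to 3 estimated counts per library, so it lay near the floor there. The log2 fold change was 7.82 (SE 1.01, adjusted p = 0.0152 from edgeR's test). From limma's voom with a correlation within same-numbered libraries of a breed, the adjusted p was 0.0591. Within wild boar, both replicate 2 libraries lay well above both replicate 1 libraries. SAL1, the salivary lipocalin that carries pheromones in boar saliva, had 55.4 and 98.4 TPM in wild boar GOM, 1213 and 880 in its ULB, 8.18 and 13.7 in Bama pig GOM and 15.1 in Bama pig ULB. It thus had its highest levels in wild boar backfat (log2 fold change 4.36, SE 0.63, adjusted p = 0.0217 from edgeR's test). The breed difference of SAL1 was 3.44 in the GOM and 6 in the ULB on the log2 scale. Reads of lipocalins and galectins, which have close relatives in the genome, may be split between them by the quantification. RDH5, an enzyme that oxidizes retinol, had 19.5 and 43.5 TPM in wild boar GOM, 30.5 and 14.5 in its ULB, 6.61 and 2.51 in Bama pig GOM and 1.52 in Bama pig ULB (log2 fold change 3.56, SE 0.53, adjusted p = 0.0241 from edgeR's test).

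LGALS13, a galectin known from the placenta, had 0 estimated counts in all 3 Bama pig libraries. It had 7 and 2 counts in wild boar GOM and 128 and 217 in its ULB, at least 29.5-fold higher in wild boar with a floor of 3 counts per Bama pig library (adjusted p = 0.0391 from edgeR's test). Its GOM counts are few. PHGDH, the enzyme of the first step of serine synthesis, was higher in wild boar as well, with 5.98 and 4.82 TPM in wild boar GOM, 60.8 and 61.9 in its ULB, 1.44 and 3.19 in Bama pig GOM and 14.3 in Bama pig ULB (log2 fold change 1.87, SE 0.33, adjusted p = 0.0463 from edgeR's test). It was the 1 member called among 18 of the serine and one-carbon list, and it was called in 7 of 22 alternatives. TOMM7, a small subunit of the translocase that imports proteins into mitochondria, had 306 and 339 TPM in wild boar GOM, 203 and 261 in its ULB, 142 and 189 in Bama pig GOM and 43.5 in Bama pig ULB (log2 fold change 1.83, SE 0.29, adjusted p = 0.0287 from edgeR's test). C1RL, a protease related to complement C1r, and SEMA3B, a secreted semaphorin, had the smallest changes of the 12, 1.54 and 1.55 on the log2 scale. They were called in 8 and 7 of 22 alternatives. HSPB8, a small heat shock protein, had 56 and 27.1 TPM in wild boar GOM and 11.3 and 7.08 in Bama pig GOM, but only 7.91 and 2.08 against 0.4 in the ULB (log2 fold change 2.96, SE 0.54, adjusted p = 0.0498 from edgeR's test). The summed level of its list, 3562 to 6923 TPM in wild boar and 2618 to 5077 in Bama pig, overlapped between the breeds, and HSPB8 was the 1 member called among 20.

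A gene of the early response to signals was among those higher in wild boar, and a peptide precursor whose gene also answers to cyclic AMP was among those lower. DUSP1 (chromosome 16 from 51457924 to 51461095) encodes a phosphatase that switches off MAP kinases. It had 388 and 514 TPM in wild boar GOM, 565 and 682 in its ULB, 242 and 156 in Bama pig GOM and 136 in Bama pig ULB (log2 fold change 1.91, SE 0.31, adjusted p = 0.0315 from edgeR's test). It was the 1 member called among 29 of the immediate early list, whose median was 0.62 and of which 11 were higher and 1 lower at an unadjusted p below 0.05. PENK (chromosome 4 from 75525497 to 75530403) encodes proenkephalin, the precursor of opioid peptides. It had 1.49 and 4.76 TPM in wild boar GOM, 6.95 and 6.59 in its ULB, 45.1 and 29.4 in Bama pig GOM and 34.5 in Bama pig ULB (log2 fold change -2.73, SE 0.42, adjusted p = 0.0282 from edgeR's test). Every Bama pig library lay above every wild boar library. PENK was the 1 member called among 13 of the neural list. Of the others and PENK together, 3 were higher and 5 lower at an unadjusted p below 0.05. The median of the list was 0.54 in the GOM and -0.80 in the ULB. Its summed level was 40 to 73.7 TPM in wild boar and 100 to 130 TPM in Bama pig, without overlap. PENK is part of these sums, at 1.49 to 6.95 TPM in wild boar and 29.4 to 45.1 in Bama pig. In the GOM the list summed to 43.8 and 40 TPM in wild boar and 113 and 130 in Bama pig. That gap is wider than the level of PENK in any library. In the ULB the sums were 73.7 and 69.1 TPM against 100, a gap narrower than the 34.5 TPM of PENK in Bama pig ULB. The other members were not summed without PENK.

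The 250 bases upstream of the RefSeq gene start are shown for DUSP1 (chr16:51457674-51457923, plus strand) and PENK (chr4:75525247-75525496, plus strand), which moved in opposite directions, and for a secreted matrix protein in each direction, MFAP5 (chr5:62742270-62742519, plus strand) and SPP1 (chr8:131085335-131085584, minus strand). They are written 5′ to 3′ on the strand of the gene, from RefSeq's Sscrofa11.1. Capitals mark matches, on either strand, to the half-site of the cyclic AMP response element (TGACG, or CGTCA on the other strand) and to the CCAAT box (CCAAT or ATTGG). Matches to TATAAA and to TGACTCA were searched as well and are absent from these 4 windows.
DUSP1: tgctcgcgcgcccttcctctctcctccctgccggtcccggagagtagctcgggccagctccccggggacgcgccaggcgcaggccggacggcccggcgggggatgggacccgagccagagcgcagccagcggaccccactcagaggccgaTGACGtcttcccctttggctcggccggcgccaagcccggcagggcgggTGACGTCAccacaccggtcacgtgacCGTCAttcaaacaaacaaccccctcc
PENK: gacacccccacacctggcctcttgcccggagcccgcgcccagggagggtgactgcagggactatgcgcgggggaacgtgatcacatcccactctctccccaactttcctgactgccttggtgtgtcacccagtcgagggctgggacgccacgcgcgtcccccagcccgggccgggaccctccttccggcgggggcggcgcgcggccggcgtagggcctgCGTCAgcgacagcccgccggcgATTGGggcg
SPP1: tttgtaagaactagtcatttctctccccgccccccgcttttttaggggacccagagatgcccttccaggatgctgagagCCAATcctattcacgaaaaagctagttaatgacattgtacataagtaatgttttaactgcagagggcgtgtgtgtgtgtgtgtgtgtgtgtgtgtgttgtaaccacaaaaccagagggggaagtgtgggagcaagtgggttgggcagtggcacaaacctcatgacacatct
MFAP5: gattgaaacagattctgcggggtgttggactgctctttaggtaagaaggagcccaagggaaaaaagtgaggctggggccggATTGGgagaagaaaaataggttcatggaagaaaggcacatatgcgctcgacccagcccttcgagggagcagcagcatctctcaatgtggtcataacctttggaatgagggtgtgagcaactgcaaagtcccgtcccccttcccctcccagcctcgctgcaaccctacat
The half-site was found 4 times upstream of DUSP1, where the middle pair of matches overlap and end 45 bases before the gene start, and once upstream of PENK, 31 to 27 bases before it. Of 11811 upstream windows of the same length, 22.3% hold the half-site, 32.4% the CCAAT box, 7.27% TATAAA and 2.53% TGACTCA. Among the windows of 32 called genes outside the set-aside lists, those of DUSP1, PENK, RGL3 and TOMM7 hold the half-site. A match is a string of letters, and no binding was measured.

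The genes lower in wild boar encode receptors, ligands and signalling proteins as well as a matrix protein. SPP1, or osteopontin, is made by macrophages of fat among other cells. It had 44.1 and 21.4 TPM in wild boar GOM, 22 and 56.2 in its ULB, 195 and 119 in Bama pig GOM and 230.2 in Bama pig ULB, with no overlap (log2 fold change -2.12, SE 0.37, adjusted p = 0.0449 from edgeR's test). It was called in 10 of 22 alternatives. Of the macrophage markers, SPP1 was the 1 member called among 22, 7 members were higher and 3 lower in wild boar at an unadjusted p below 0.05, and the list summed to 1209 to 3400 TPM in wild boar and 1340 to 2575 in Bama pig. NPSR1, the receptor for neuropeptide S, had 0.37 and 0.36 TPM in wild boar GOM, 0.9 and 0.19 in its ULB, 25.4 and 14.8 in Bama pig GOM and 16.2 in Bama pig ULB (log2 fold change -5.02, SE 0.6, adjusted p = 0.0124 from edgeR's test). Its wild boar levels rest on 1 to 7 estimated counts per library. It was called in 17 of 22 alternatives.

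BTC, or betacellulin, a ligand of the EGF receptor, had 13.4 and 17.4 TPM in wild boar GOM, 4.48 and 12.4 in its ULB, 137 and 203 in Bama pig GOM and 24.1 in Bama pig ULB (log2 fold change -2.42, SE 0.4, adjusted p = 0.0372 from edgeR's test). FGF1, a further growth factor, was also lower (log2 fold change -1.72, SE 0.31, adjusted p = 0.047 from edgeR's test), from 19.5 and 8.67 TPM in wild boar GOM and 1.59 and 1.57 in its ULB to 47 and 78.1 in Bama pig GOM and 5.41 in Bama pig ULB. In either breed, the GOM libraries lay above the ULB libraries for both ligands. RGS9, which speeds the shutdown of G proteins in photoreceptors and striatum, had 0.67 to 1.96 TPM in wild boar and 7.22 to 13.6 in Bama pig (log2 fold change -2.7). CELSR2, an atypical cadherin of planar cell polarity, had 2.36 to 3.88 TPM in wild boar and 10.9 to 20.2 in Bama pig (log2 fold change -1.84). GDAP1L1, a relative of the mitochondrial fission factor GDAP1, had 0.1 to 0.34 TPM in wild boar and 2.56 to 3.5 in Bama pig (log2 fold change -3.93, adjusted p = 0.00947 from edgeR's test). C9orf152 had 0.47 to 1.1 TPM in wild boar and 4.74 to 8.17 in Bama pig. In RGS9, CELSR2, GDAP1L1 and C9orf152 the Bama pig ULB library lay within or close to the range of the Bama pig GOM libraries.

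For PP2D1, CAPN12 and DCDC2B, by contrast, the size of the difference and the call rested largely on the single Bama pig ULB library. CAPN12, a calpain protease, had 22 TPM (824 estimated counts) there, 0.28 and 0.37 TPM in Bama pig GOM and 2 counts in all wild boar libraries together, a ratio of 524 with a 95% exact counting interval of 145 to 4331. Without Bama pig ULB 2 its log2 fold change moved from -9.11 to -3.28 and the call was lost. PP2D1 had 22.5 TPM in Bama pig ULB, 0.36 and 1.09 in Bama pig GOM and 1 count in wild boar, and its log2 fold change moved from -9.77 to -7.04 without that library. Its difference thus stayed large there, on 10 and 25 counts in Bama pig GOM, though the call was lost. DCDC2B, a doublecortin family member, had 6.49 TPM in Bama pig ULB, 0.14 and 0.29 in Bama pig GOM and 1 count in wild boar. Its adjusted p was 0.0525 from limma's voom with a correlation within same-numbered libraries of a breed. Among the 43 lower genes, 9 had a TPM in Bama pig ULB over 5 times that of both Bama pig GOM libraries. One of the 43 is the mitochondrially encoded ND1, a subunit of complex I, with 6.24 to 11.3 TPM in wild boar and 126, 18.9 and 528 TPM in Bama pig GOM 1, GOM 2 and ULB 2, and is thus highest in the same pair of libraries as the mitochondrial RNA as a whole. The 9 lower genes with a symbol outside the set of 24 had log2 fold changes of -7.83 to -1.43. They include RGL3, an exchange factor for Ral proteins, which fell outside that set by its mean TPM and had 0 counts in every wild boar library and 41, 23 and 23 counts in Bama pig, at least 8.89-fold lower.

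Of the 61 genes, 26 are listed without a symbol, 4 higher and 22 lower in wild boar. Here 4 are given by identifier, chosen after their values were seen. ENSSSCG00000030140 had 0 estimated counts in all 4 wild boar libraries and 1164, 639 and 760 in Bama pig GOM 1, GOM 2 and ULB 2, at least 266-fold lower in wild boar with a floor of 3 counts per library (adjusted p = 0.00146 from edgeR's test). It was the 1 gene of the 61 called under every alternative, 22 of 22. ENSSSCG00000043871 was abundant, with 13 to 46.8 TPM in wild boar and 1001 to 2241 in Bama pig (log2 fold change -5.64, SE 0.49, adjusted p = 0.00237 from edgeR's test). In the other direction, ENSSSCG00000001458 had 352 and 214 counts in wild boar GOM, 115 and 43 in its ULB and 1, 2 and 1 in Bama pig, and ENSSSCG00000045769 had 18 to 71.1 TPM in wild boar and 1.61 to 8.2 in Bama pig. Reads of both breeds were quantified on transcripts of a single reference genome, of a Duroc pig, and a transcript absent from an animal cannot be told apart here from one whose sequence differs from that reference.

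To compare the depots, a fit with a mean for each of the 4 groups was made, in which the single Bama pig ULB library was assumed to vary like the others. In the GOM 1 gene (0.00625%) and in the ULB 30 genes (0.188%) were called between the breeds, the latter with 5 (0.0313%) higher and 25 (0.156%) lower in wild boar, and 1 and 7 of these, respectively, were among the 61. No gene was called for a breed difference that differed between depots (0%, with 762 genes at an unadjusted p below 0.05), whereas DESeq2 called 51. Of the 61 genes, 5 had an unadjusted interaction p below 0.05, and the lowest adjusted value among the 61 was 0.89. Among the 23 plotted genes these were SAL1 (unadjusted p = 0.00968 from edgeR's test) and CAPN12 (unadjusted p = 0.00277 from edgeR's test), described above. MFAP5 and NPSR1 had nearly equal differences in both depots, 2.71 and 2.54, and -5.01 and -5.04, on the log2 scale.

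**Figure D3:**
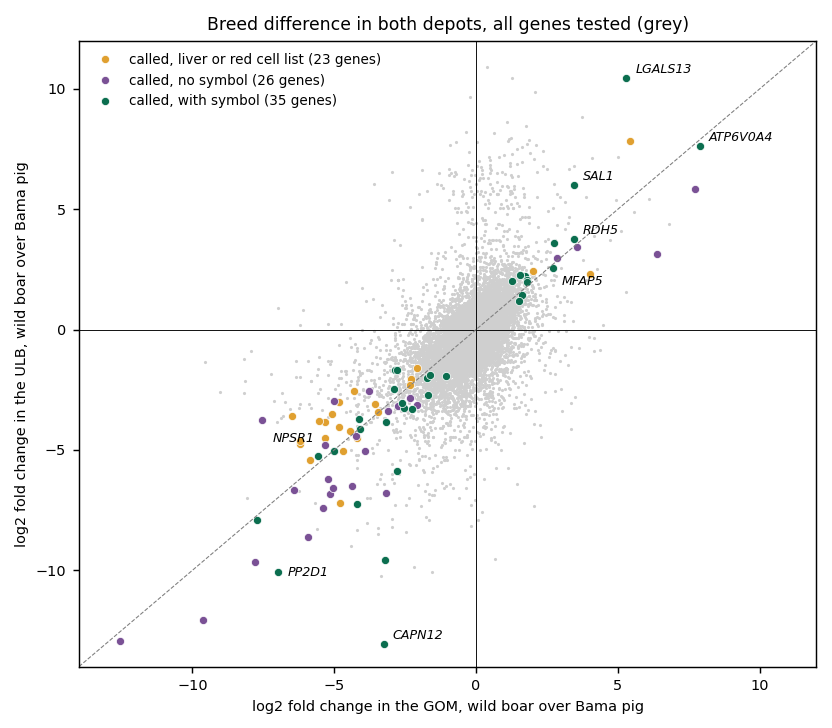
Log2 fold change of wild boar over Bama pig in the GOM (horizontal) and in the ULB (vertical), from 1 fit with a mean for each group, for all genes tested (grey) and the 84 genes called with the depot as covariate (coloured); the dashed line marks equal differences. All 84 lie in the lower left or upper right part of the plot, a pattern that the call itself favours, and LGALS13, SAL1 and CAPN12 lie farther from 0 in the ULB than in the GOM.

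Genes of energy metabolism and fat storage were examined by list. None of 18 adipocyte markers was called by edgeR (3 higher and 2 lower at an unadjusted p below 0.05, 0 to 3 called under the alternatives), and FABP4, ADIPOQ and PLIN1 had log2 fold changes of 0.1, 0.04 and 0. Nuclear genes of the respiratory chain had a median of 0.93, close in the GOM (0.9) and the ULB (0.98). None of 56 was called by edgeR, although all 56 had a log2 fold change above 0 and 39 had an unadjusted p below 0.05, and 0 to 32 were called under the alternatives. NDUFB1, an accessory subunit of complex I, had 607 and 941 TPM in wild boar GOM, 681 and 642 in its ULB, 212 and 394 in Bama pig GOM and 208 in Bama pig ULB, without overlap (adjusted p = 0.0547 from edgeR's test). COX4I1 and COX7B, subunits of complex IV, had log2 fold changes of 0.4 and 0.52. The list was lowest in Bama pig GOM 1 and ULB 2, at 6278 and 5485 TPM against 8339 to 12711 in the other 5 libraries. The 12 mitochondrially encoded genes tested all had a log2 fold change below 0 (median -2.31, 10 with an unadjusted p below 0.05), with ND1 alone called, and all 12 were highest in one of these same 2 Bama pig libraries. Both sets thus moved with the same libraries in opposite directions. TPM values share a fixed total per library, so a higher mitochondrial sum by itself lowers the nuclear sums. How much of the opposite movement this makes up was not tested. Bama pig GOM 2, at 10798 TPM, lay within the wild boar range of the nuclear genes. The part of these libraries in the breed difference cannot be told apart from the breed for the ULB, where Bama pig has no other library.

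**Figure D4:**
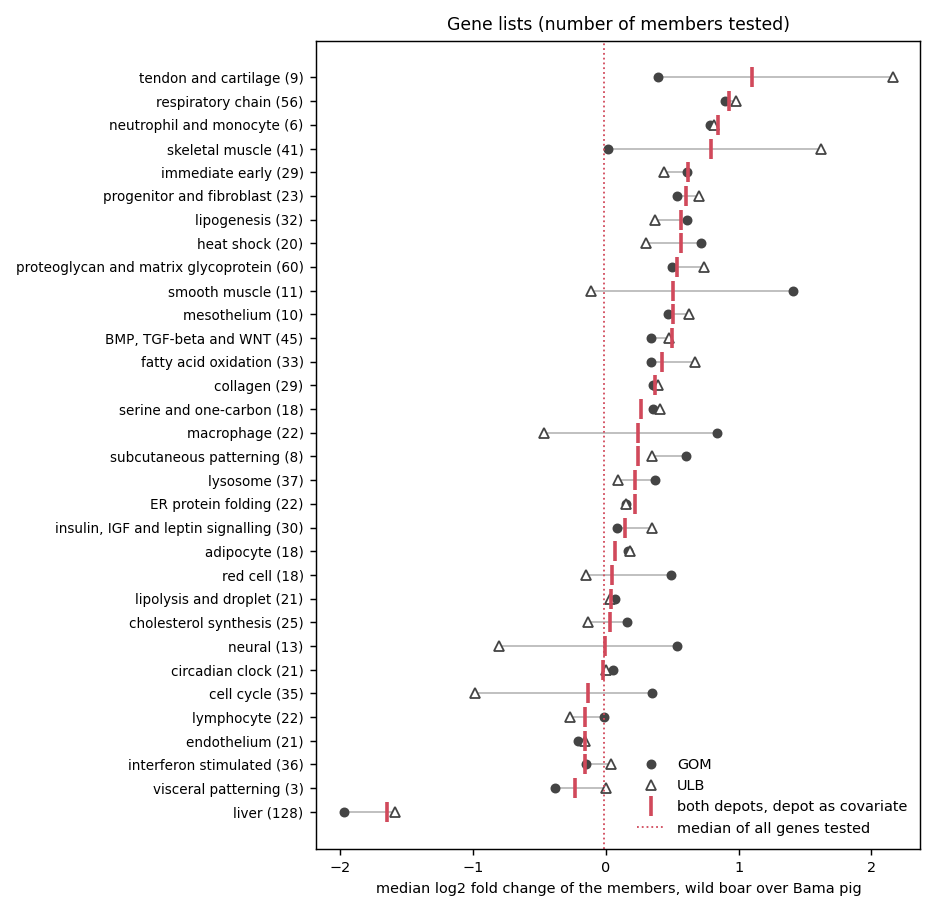
Median log2 fold change of wild boar over Bama pig for the tested members of 32 gene lists, in the GOM (filled circles), in the ULB (open triangles) and with the depot as covariate (red bars); the dotted line is the median of all genes tested, -0.01. Liver genes lie lowest at -1.65, tendon and cartilage genes highest at 1.1, and the tendon, skeletal muscle and smooth muscle lists have the widest distance between the depots.

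Compartments were a readout that the choice of genes did not use. For each 20-kb bin of the genome, the authors deposited the first principal component (PC1) of the Hi-C contact matrix, a score whose positive values mark compartment A, where most transcribed genes lie, and whose negative values mark compartment B. Of the 61 genes, 32 could be placed on autosomes by their symbol. Their start sites were in A in all 7 Hi-C libraries for 20 genes (62.5%), in B in all 7 for 5 (15.6%) and of mixed sign for 7, while among 11416 placed genes of all those tested the shares were 81.4% in A and 7.45% in B. When only genes with an absolute PC1 of 10 or more in every library were kept, 19 of 20 genes (95%) were in A, against 94.7% of all genes, so the lower share came with genes near 0. DUSP1 lay in A with scores of 33.9 to 39.2, and SPP1 with 30.6 to 45.5, and with depots pooled the breeds overlapped at both. Around SAL1 (chromosome 1 from 253638017 to 253642835), scores were 0.26 and -30.02 in wild boar GOM, -25.4 and -24.5 in its ULB, 17.3 and -9.87 in Bama pig GOM and 22 in Bama pig ULB. In the ULB the breeds thus had opposite signs at SAL1, with the higher expression on the side of the negative score, and in the GOM they overlapped. At NPSR1 (chromosome 18 from 38942499 to 39212791), the 4 wild boar libraries had scores of -10.86 to -7.49 and the 3 Bama pig libraries 4.64, -5.15 and 0.51. Here the breeds did not overlap, though the nearest scores were -7.49 and -5.15 and the Bama pig libraries alone held both signs. How many of all placed genes part the breeds in this way was not counted, and no test was made. MFAP5 lay between -0.72 and 11.5.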

How the data were processed

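RNA of 7 fat samples was sequenced after rRNA removal. Per the submitters' processing notes, the authors quantified reads with kallisto 0.43.0, and deposited estimated counts and TPM (length-corrected levels) for 21280 genes, with all 7 libraries in a single table. The authors also deposited, for each Hi-C library, a PC1 score per 20-kb bin. The TAD files were not used here.

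Estimated counts were rounded and tested with edgeR 4.0.16 (R 4.3.3) as a quasi-likelihood fit of depot plus breed after TMM normalization, on genes with a TPM above 0.1 in all libraries of a breed. Breed effects within a depot and the interaction came from a fit of 4 group means. Calls needed an adjusted p below 0.05 with a log2 fold change above 1 in absolute size. SE is the absolute log2 fold change over the root of F. Scripts were tested on simulated data.

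Groups came from the sample labels. GOM and ULB came from the same animals, but labels do not tie replicate numbers to animals, so libraries were treated as independent, and p-values measure only the spread between these libraries. No pair of libraries held identical values, and Spearman's rho between them was at most 0.972. Library totals ranged from 10833207 to 18627105 estimated counts, which limits precision for genes with few counts. Members of similar gene families share reads, and their values are uncertain.

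Genes named were the 12 higher and 12 lower called genes with a symbol and the smallest p outside the set-aside lists, with a mean TPM of at least 1 in either breed, together with called members and the most abundant members of 32 gene lists. One gene of the 24 is not reported here. Genes named beyond this were chosen after their values were seen. The comparison, the lists and the rule were chosen with earlier results of these data known. Symbols were matched to RefSeq's Sscrofa11.1, which placed 11811 tested genes, and 83 symbols that occur more than once were left out. A ratio with few counts carries a 95% exact interval, and a fold against 0 counts uses a floor of 3 counts per library.

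Alternatives were DESeq2 1.42.0, upper quartile and RLE normalization, no filter, a TPM above 1, removal of the set-aside lists, limma 3.58.1 (voom, and on log2(TPM + 0.1)), a replicate block, the GOM alone, and leaving out each library or number. The voom fit took libraries of a breed that share a number as an animal, which the labels do not state. Its estimated correlation was -0.091. The study's methods name Sscrofa11.1 as the genome. The rRNA removal kit and the kallisto version differ between the sources used here.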

Additional observations from a re-analysis of the deposited data

How the results depend on the processing

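The count of 84 genes called between the breeds depended on the method. It was 1175 with DESeq2, 503 with no filter, 418 with limma on log2(TPM + 0.1), 212 with voom and a correlation within same-numbered libraries of a breed, 38 with the liver, red cell and muscle genes removed, and 4 in the GOM alone. Of these calls, 997, 435, 403, 212 and 38 parted the breeds in both depots, for the alternatives with both depots. Leaving out 1 library gave 4 to 2085 calls, and 14 to 2085 that parted the breeds in both depots. Leaving out both wild boar libraries that share a number gave 32 calls (20 higher, 12 lower) for number 1 and 19 (7 and 12) for number 2, against 21 and 63. The balance of directions thus turned for number 1 and not for number 2. These 32 and 19 calls all parted the breeds in both depots. Leaving out both Bama pig libraries numbered 2 left a single Bama pig library. Chosen after seeing the data, leaving out Bama pig GOM 1 and ULB 2 gave 10, and removing mitochondrially encoded genes gave 82. With limma on TPM, 45 of the calls were higher and 373 lower. In the GOM, the 1 call became 216 with DESeq2, 0 with a TPM above 1, 10 with the replicate block and 0 to 33 with a library left out. In the ULB, the 30 calls became 424 with DESeq2, 2 with a TPM above 1 and 0 to 98 with a library left out. The interaction gave 51 calls with DESeq2 and 0 to 1 with a library left out. The share of called genes in compartment A was 64.8%, and 90.6% with an absolute PC1 of at least 10. With the replicate block, 62 genes were called between the breeds, 53 of them among the 84, and the calls of SPP1, LGALS13, PHGDH, SEMA3B and DCDC2B were lost. Wild boar GOM 1 had a residual correlation of 0.178 with wild boar ULB 1 and of 0.179 with Bama pig GOM 1. The latter shares its number but not its breed, and the labels do not say what a number marks. None of the 24 named genes changed sign under any alternative, which their parting in both depots largely fixes beforehand. The macrophage list held 4 higher and 2 lower calls with DESeq2 against 0 and 1. The cause of these changes was not tested. Depth limited genes with few counts, and 12 of the 61 genes had under 3 counts in each wild boar library.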

Other observations

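Counts over the lists are to be read against all genes tested, of which 0.525% were called and 22.4% had an unadjusted p below 0.05, so that 0 calls in lists of this size lies near that share. Of the lipogenesis list, 0 of 32 genes were called, 10 were higher and 2 lower in wild boar at an unadjusted p below 0.05, 0 to 7 were called under the alternatives, and the median log2 fold change was 0.57. SCD, the desaturase that makes oleate, had 590.3 and 3850 TPM in wild boar GOM, 8312 and 4735 in its ULB, 657 and 665 in Bama pig GOM and 1274 in Bama pig ULB. The GOM libraries of the breeds overlapped for SCD, and the ULB libraries did not. FASN, the fatty acid synthase, had 778 and 2581 TPM in wild boar GOM, 644 and 539 in its ULB, 1394 and 1064 in Bama pig GOM and 211 in Bama pig ULB. On the fatty acid oxidation list, 0 of 33 genes were called (8 higher and 2 lower at an unadjusted p below 0.05, 0 to 11 under the alternatives), with a median of 0.42. Lists of lipolysis and lipid droplets (21 genes) and of cholesterol synthesis (25 genes) had medians of 0.04 and 0.03 and 0 calls, with 2 higher and 1 lower, and 5 higher and 2 lower, at an unadjusted p below 0.05, and up to 1 and 2 calls under the alternatives.

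Insulin, IGF and leptin signalling held 0 calls among 30 genes (7 higher and 1 lower at an unadjusted p below 0.05, 0 to 4 under the alternatives), with a median of 0.14. LEP, the gene of leptin, had 52.1 to 254 TPM in wild boar and 73.6 to 156 in Bama pig, with full overlap. On the BMP, TGF-beta and WNT list 10 of 45 genes were higher and 2 lower at an unadjusted p below 0.05 with 0 called and 0 to 7 under the alternatives, and the median was 0.5. Lists of the lysosome (37 genes), ER protein folding (22), the circadian clock (21), interferon-stimulated genes (36) and the cell cycle (35) had medians of 0.22, 0.22, -0.02, -0.16 and -0.14. Each had 0 calls by edgeR, against 7 higher and 3 lower, 1 and 2, 1 and 1, 1 and 3, and 0 and 1 genes at an unadjusted p below 0.05, and up to 5, 3, 1, 1 and 1 calls under the alternatives.

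Among cell type markers, the neutrophil and monocyte list (6 genes tested) had a median of 0.84, with 3 higher and 1 lower at an unadjusted p below 0.05, 0 called and 0 to 3 under the alternatives. S100A8, a calcium-binding protein of neutrophils, had 362 and 180 TPM in wild boar GOM, 49.6 and 18 in its ULB, 28.6 and 91 in Bama pig GOM and 2.36 in Bama pig ULB (adjusted p = 0.0547 from edgeR's test). Wild boar lay above Bama pig in either depot for this gene. Lymphocyte (22 genes), endothelium (21), smooth muscle (11), mesothelium (10), visceral patterning (3) and subcutaneous patterning (8) lists had medians of -0.15, -0.16, 0.51, 0.51, -0.23 and 0.24. They held 0 calls by edgeR, with 1, 2, 3, 2, 1 and 1 genes higher and 1, 3, 0, 0, 0 and 0 lower at an unadjusted p below 0.05, and up to 1, 3, 2, 1, 0 and 0 calls under the alternatives.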
